A study of Mus musculus with 2 samples.

Results

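AP-2 transcription factors are DNA-binding proteins that bind GC-rich palindromes as dimers and act in surface ectoderm, neural crest and facial mesenchyme. Tfap2a and Tfap2b (AP-2alpha and AP-2beta) are known for their roles in neural crest and jaw development, and Tfap2c (AP-2gamma) for its roles in trophectoderm and epidermis. KCTD15 and KCTD1 restrain AP-2 activity, whereas CITED proteins link AP-2 factors to the acetyltransferases p300 and CBP. The 3 genes were taken by symbol and identifier. They were 3 of 27998 genes listed for the E12.0 library and 3 of 31053 listed for the E9.5 library, with 27514 genes listed in both.

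Both libraries came from mouse embryos of the genotype K14Cre;R26mT/mG, in which a Cre driven by the K14 promoter of surface epithelium switches a membrane reporter from tomato to GFP. At E12.0, epithelium peeled with dispase from the mandibles of 6 pooled embryos of 1 litter was sorted for GFP, so epithelium in which K14Cre was not active is not represented. At E9.5, whole mandibular arches of 8 pooled embryos were dissociated without a sort, and epithelium and mesenchyme were both captured. Each stage is 1 10x Genomics 3' library, so no comparison has a replicate check, and stage, sort, depth and library cannot be told apart.

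After cells with fewer than 200 or more than 5500 genes, or more than 10% mitochondrial UMIs, were left out, 11355 of 11663 barcodes remained at E12.0 (median 6349 UMIs) and 12744 of 14293 at E9.5 (median 13460.5 UMIs). The libraries shared 51 barcodes. Levels below are UMIs per 1000000 UMIs of a group (CPM), followed in parentheses by 95% exact Poisson limits, and shares of cells with at least 1 UMI carry 95% exact binomial limits where limits are given. These intervals cover counting error only. A gene was called higher or lower where its CPM differed by at least 1.3-fold and at least 15% of the cells of the higher group held a UMI, a criterion of size and not a test. Since 3' counting is not per length, levels of different AP-2 genes are compared only as UMI CPM. The E12.0 sort was nearly free of other cell types: the 6 mesenchyme markers summed to 0.867 to 2.85 CPM over the 4 zones, the 5 endothelial markers to 1.08 to 1.90 CPM with Cdh5 at 0, and the 4 blood markers to at most 0.317 CPM.

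Tfap2a (ENSMUSG00000021359) lies on the minus strand at chr13:40715302-40738376 of GRCm38, spanning 23075 bases with 9 annotated transcripts, 6 of them coding. Tfap2b (ENSMUSG00000025927) lies on the plus strand at chr1:19208914-19238576, spans 29663 bases and starts 42568 bases downstream of the end of its paralogue Tfap2d on the same strand. Tfap2c (ENSMUSG00000028640) is the shortest of them, with 9030 bases on the plus strand at chr2:172549593-172558622. No UMI of Tfap2d was counted in either library, which allows at most 0.0473 CPM at E12.0 and 0.0222 CPM at E9.5. Tfap2e reached 0.359 CPM at E12.0 and 0.235 CPM at E9.5, so nearly all AP-2 UMIs came from Tfap2a, Tfap2b and Tfap2c.

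The palindrome GCCNNNGGC, a core that AP-2 proteins bind and that reads the same on both strands, was searched in the 250 bases upstream of RefSeq transcript starts (GRCm38.p6), where 13.7% of 32851 promoters and 15.4% of 27025 genes hold it. Neither of the 2 Tfap2a promoters nor the single Tfap2b promoter held it, and Tfap2c was not among the promoters used here. Of the AP-2 family genes and cofactors, 3 of the 9 with a promoter held it (Kctd15, Cited1 and Crebbp), as did 1 of 4 surface epithelium genes (Krt18), 2 of 3 crest and mesenchyme genes (Snai1 and Kit) and 2 of 3 WNT ligand genes (Wnt3 and Wnt10b). The stretches around the palindrome are printed for Kctd15, the AP-2 inhibitor gene, and for Wnt3, since both were, like the AP-2 genes, highest in the anterior zone at E12.0. Capitals mark the palindrome, and a match is a description of these letters only.
Kctd15, chr7:34653107-34653175, minus strand, inside an intron, palindrome 213 bases upstream of a transcript start: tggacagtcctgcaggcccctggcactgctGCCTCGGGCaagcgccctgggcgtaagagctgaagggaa
Wnt3, chr11:103774031-103774099, plus strand, no gene annotated there, palindrome 114 bases upstream of the start: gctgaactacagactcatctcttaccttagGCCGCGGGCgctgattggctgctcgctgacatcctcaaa
Wnt3, chr11:103773925-103773977, plus strand, no gene annotated there, palindrome 236 bases upstream of the start: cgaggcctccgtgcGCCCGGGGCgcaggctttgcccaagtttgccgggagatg
The Kctd15 stretch holds 2 further palindromes of this form, 228 and 200 bases upstream, left in lower case.

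With the zones used here, all 3 AP-2 genes at E12.0 were most abundant in anterior epithelium, the aboral region in front of the teeth, and least abundant in dental epithelium. Zones were named "like" their region from marker genes that did not include an AP-2 gene, and the AP-2 genes were left out of the features used to cluster the cells (all 3 would have been among the 3000 variable features). The anterior-like zone held 4041 cells (median 6489 UMIs), the dental-like zone 1183 (7255), the posterior-like zone 2280 (6224) and the periderm and suprabasal-like zone 463 (5921), while 3388 cells (5962) had no zone name. The 10 anterior markers summed to 3305 CPM in anterior-like cells against 458 to 801 CPM in the other zones, the 9 dental markers to 1547 against 256 to 807 CPM, the 8 posterior markers to 699 against 144 to 263 CPM, and the 8 periderm markers to 1416 against 110 to 132 CPM.

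Tfap2b showed the steepest contrast between zones. Its level was 811 CPM (800 to 821) in anterior-like cells, 37.2 (33.3 to 41.3) in dental-like cells, 47.3 (43.9 to 50.8) in posterior-like cells and 128 (116 to 141) in periderm and suprabasal-like cells. A Tfap2b UMI was found in 83.4% of anterior-like cells, at 5.70 UMIs per cell on average and up to 31 in 1 cell, against 9.21% of dental-like, 10.6% of posterior-like and 24.6% of periderm and suprabasal-like cells. The intervals of all 4 zones were apart.

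Tfap2a was broader. It measured 185 CPM (180 to 190) in anterior-like, 61.7 (56.8 to 67.0) in dental-like, 103 (98.1 to 108) in posterior-like and 117 (105 to 129) in periderm and suprabasal-like cells, with a UMI in 66.5%, 34.5%, 45.4% and 47.7% of cells. The posterior-like and periderm intervals overlapped, and the others did not. Tfap2c was lowest of the 3 in UMI CPM, at 102 (98.4 to 106) in anterior-like, 23.6 (20.6 to 27.0) in dental-like, 32.9 (30.1 to 35.8) in posterior-like and 95.8 (85.3 to 107) in periderm and suprabasal-like cells, where 48.0%, 15.6%, 18.2% and 42.8% of cells held a UMI. Its anterior-like and periderm intervals overlapped.

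**Figure D1:**
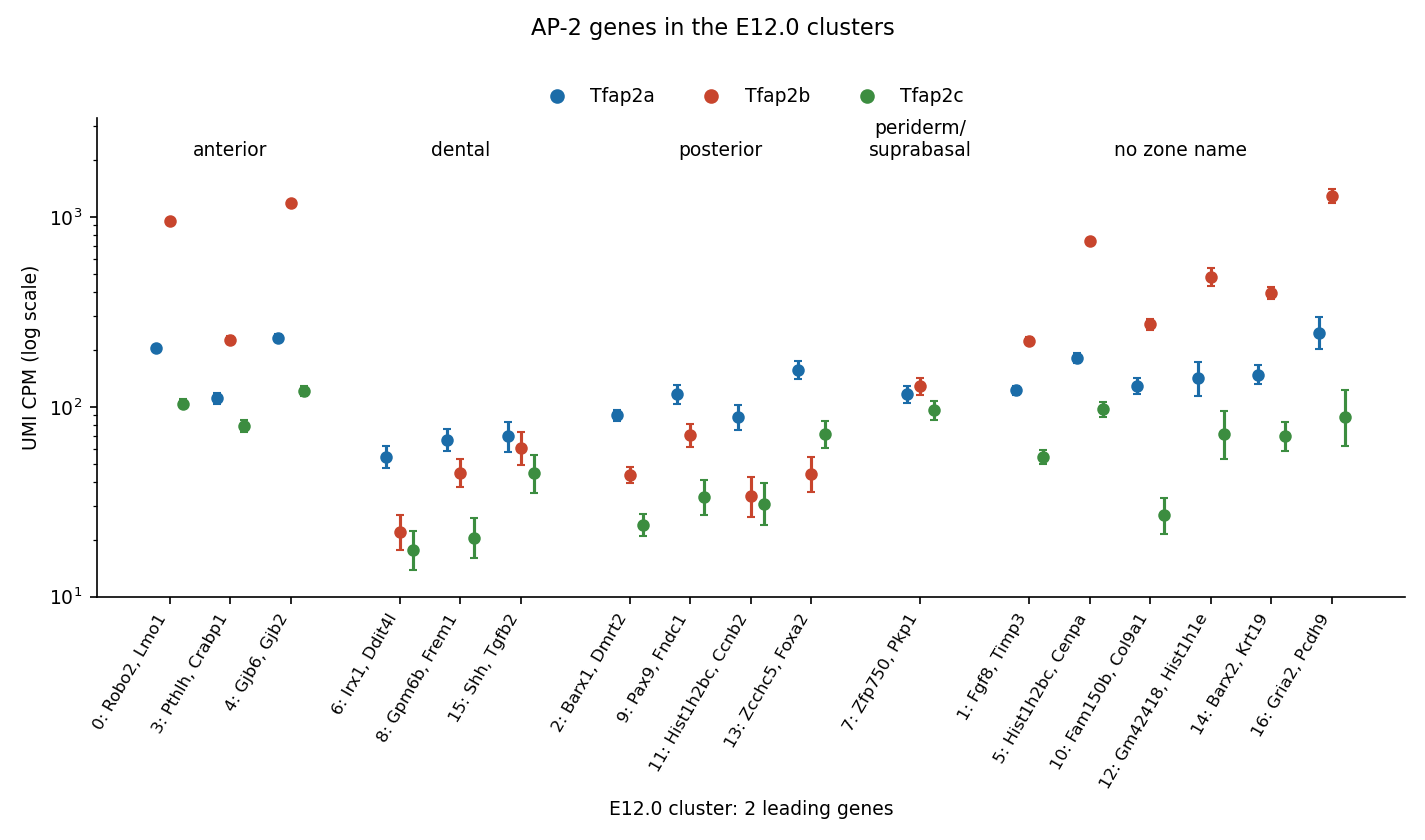
UMI CPM of Tfap2a, Tfap2b and Tfap2c in each E12.0 cluster (log axis), grouped by zone name and labelled with its 2 leading genes, with bars for 95% exact counting intervals. Tfap2b runs from 21.8 CPM in dental-like cluster 6 to 1286 CPM in the unnamed cluster 16.

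Against dental-like cells, anterior-like cells held 3.0-fold more Tfap2a (log2 1.58, 1.46 to 1.71), 21.8-fold more Tfap2b (log2 4.45, 4.29 to 4.61) and 4.32-fold more Tfap2c (log2 2.11, 1.91 to 2.32). All 3 were called higher, where 9.90% of the 6710 genes detected widely enough were called higher and 9.51% lower. Against posterior-like cells the folds were 1.79 for Tfap2a (log2 0.84, 0.76 to 0.92), 17.2 for Tfap2b (log2 4.10, 3.99 to 4.21) and 3.11 for Tfap2c (log2 1.64, 1.5 to 1.77). Again all 3 were called higher, beside 7.20% of 6460 genes called higher and 8.16% called lower. The size of the Tfap2b fold depended on the processing far more than its counting interval shows: over 12 alternatives the log2 value ran from 2.59, with low-resolution zones, to 6.45, without called doublets, against dental-like cells, and from 3.35 to 5.38 against posterior-like cells. Tfap2c ran from 1.06 to 2.36 and from 1.45 to 1.83, and Tfap2a from 1.03 to 1.82 and from 0.75 to 1.09. The direction of these 6 folds held in every alternative tried, as did their calls, except that Tfap2a against posterior-like cells was under a fold of 2 where that was asked.

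Dental-like and posterior-like cells differed less in AP-2 genes, and the direction depended on how the zones were drawn. With the zones above, the log2 difference, dental over posterior, was -0.74 (-0.88 to -0.60) for Tfap2a, -0.35 (-0.54 to -0.16) for Tfap2b and -0.48 (-0.71 to -0.25) for Tfap2c. Tfap2a and Tfap2c were called lower, beside 8.70% of 6622 genes called lower and 7.37% higher, and Tfap2b reached too few cells to be called. With zones from low-resolution clusters the values were -0.08, 0.77 and 0.73, with Tfap2b and Tfap2c called higher, and with zones from log-normalised values they were -0.33, 0.61 and 0.12, with Tfap2b called higher.

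In periderm and suprabasal-like cells, the outer layer of the epithelium, Tfap2c was raised relative to the other AP-2 genes. Tfap2c was at 95.8 CPM there against 68.2 CPM in the cells of the other zones (log2 0.49, 0.32 to 0.66) and was called higher, as were 12.2% of 6538 genes. Tfap2b was at 128 against 453 CPM (log2 -1.82, -1.97 to -1.68) and was called lower, as were 10.8% of genes. Tfap2a was at 117 against 140 CPM (log2 -0.26, -0.41 to -0.11), a difference under 1.3-fold. The marker sums in these cells were 801 CPM for anterior and 807 CPM for dental markers, so they also held RNA of the other zones' markers, and the part of this in the AP-2 values was not tested.

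The 17 clusters showed how much the AP-2 genes varied inside a zone. Among the anterior-like clusters, cluster 4, named ventral from Gjb6 and Gjb2, measured 230 CPM of Tfap2a, 1180 of Tfap2b and 121 of Tfap2c, with a Tfap2b UMI in 99.3% of its 1154 cells. Cluster 0 (1664 cells, led by Robo2, Lmo1 and Wnt9b) was close behind at 204, 954 and 104 CPM, with Tfap2b in 98.3% of cells. Cluster 3, named medial anterior and led by Pthlh and Crabp1, was far lower at 111, 224 and 79.3 CPM, with Tfap2b in 48.2% of its 1223 cells. It raised only 3 anterior markers, beside 2 dental ones. Clusters led by genes that included Pthlh and Crabp1 had no zone name with AP-2 genes kept, without regression, or from log-normalised values. The anterior-like values above include cluster 3.

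Outside the anterior-like zone, the dental-like clusters lay at 54.5 to 69.8 CPM of Tfap2a, 21.8 to 60.4 of Tfap2b and 17.6 to 44.6 of Tfap2c. The highest of each was in cluster 15, which was named initiation knot and led by Shh, a signal of the early tooth. Cluster 8, also named initiation knot, was at 67.0, 44.9 and 20.5 CPM. That name is weak: cluster 8 raised 3 knot markers, against 6 in cluster 15, but 9 dental markers. Its leading genes included Irx1 and Ntrk2, which the study reports as considerably lower in the knot, and not Shh. Its intervals overlapped those of cluster 15 for Tfap2a and Tfap2b. Of the posterior-like clusters, the tongue-like cluster 13 (286 cells, led by Zcchc5 and Foxa2) held 156 CPM of Tfap2a and 71.8 of Tfap2c, above the salivary gland-like cluster 9 at 117 and 33.6, while Tfap2b was lower in cluster 13, at 44.4 against 70.8 CPM. Cluster 16, unnamed with 99 cells led by Gria2 and Pcdh9, held the most Tfap2a and Tfap2b of any cluster, at 246 and 1286 CPM, though both intervals overlapped those of cluster 4, with a Tfap2b UMI in 97.0% of cells. Cluster 16 raised 6 anterior and 3 ventral markers, so it may be anterior epithelium. It stayed unnamed because its leading genes held the dental marker Irx2 and no anterior marker. The unnamed clusters 5 (813 cells, led by Hist1h2bc and Cenpa) and 14 (267 cells, led by Barx2 and Krt19) lay at 745 and 398 CPM of Tfap2b. Clusters 1 (1512 cells, led by Fgf8 and Timp3) and 10 (led by Fam150b and Col9a1) were lower, at 223 and 272 CPM of Tfap2b. The unnamed cluster 12 had a median of only 1169 UMIs.

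From the lowest to the highest cluster, Tfap2a spanned 4.51-fold (3.54 to 5.71), Tfap2b 58.9-fold (47.2 to 74.2) and Tfap2c 6.89-fold (5.44 to 8.84). All 3 were lowest in dental-like cluster 6, led by Irx1 and Ddit4l. Of the 16 neighbouring pairs in each order, 13 for Tfap2a, 8 for Tfap2b and 15 for Tfap2c had overlapping intervals. An overlap of separate intervals does not show that neighbours are equal within counting error, and the differences between neighbours were not tested. Across the 17 clusters, which share 1 library, Pearson's r of log2(CPM + 1) was 0.87 between Tfap2a and Tfap2b, 0.82 between Tfap2a and Tfap2c and 0.78 between Tfap2b and Tfap2c, as a description.

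Among 5299 genes that passed 50 CPM in some E12.0 cluster, the 5 whose pattern was most like Tfap2a were Gjb6 (0.91), Fos (0.91), Mast4 (0.91), Fosb (0.90) and Slc15a2 (0.90). Those most like Tfap2b were Lmx1b (0.93), Cobll1 (0.92), C130021I20Rik (0.91), Cacng4 (0.91) and Gjb6 (0.90), and those most like Tfap2c were Tmcc3 (0.90), Satb1 (0.89), Zbtb7a (0.87), Iqgap1 (0.86) and Htra1 (0.86). Gjb6, a gap junction gene, was also a marker used for the ventral name.

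The make-up of the AP-2 pool differed between zones. In anterior-like cells, Tfap2b supplied 73.9% of the AP-2 UMIs, Tfap2a 16.8% and Tfap2c 9.30%, of a summed 1098 CPM. In dental-like cells the sum was 123 CPM, of which Tfap2a made up 50.4%, Tfap2b 30.3% and Tfap2c 19.3%, and in posterior-like cells it was 183 CPM, with 56.3%, 25.8% and 17.9%. Periderm and suprabasal-like cells, with 341 CPM, were the most even, at 34.3%, 37.6% and 28.1%. Tfap2b thus led the pool in anterior-like cells and Tfap2a in dental-like and posterior-like cells. Called doublets were included in these shares. Without them, thinned cells with Tfap2b fell from 6.04% to 3.09% in dental-like and from 8.06% to 5.24% in posterior-like cells. In periderm and suprabasal-like cells they fell from 19.0% to 13.7%. The Tfap2b shares outside the anterior-like zone therefore depend on called doublets.

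**Figure D2:**
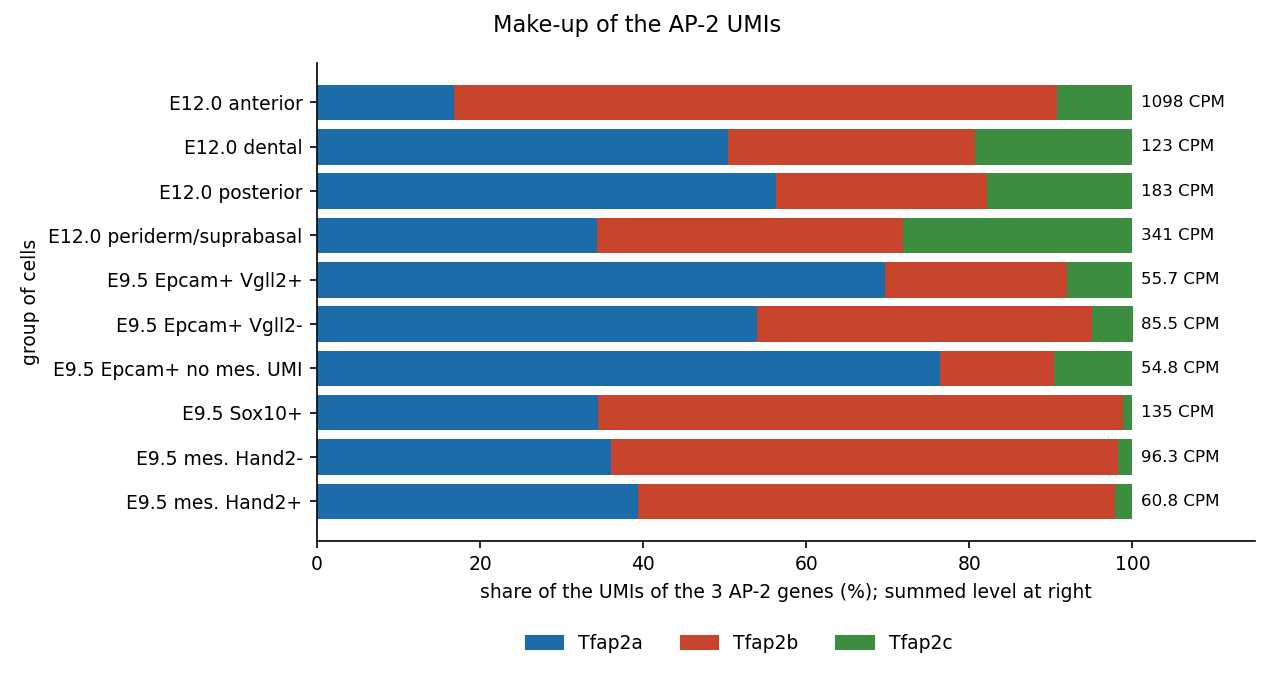
Share of AP-2 UMIs (percent) that came from Tfap2a, Tfap2b and Tfap2c in each E12.0 zone and in some E9.5 groups. Tfap2b makes up 73.9% in anterior-like cells and 64.5% in E9.5 crest, and Tfap2a 76.4% in E9.5 epithelial cells without mesenchyme UMIs.

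Single cells were next compared at 1 depth, 4100 UMIs a cell, which left out 1024 shallower E12.0 cells. Of 3811 anterior-like cells, 10.5% held none of the 3 genes, 23.7% Tfap2b alone, 5.09% Tfap2a alone, 3.1% Tfap2c alone, 27.4% Tfap2a with Tfap2b, 12.0% Tfap2b with Tfap2c, 1.65% Tfap2a with Tfap2c and 16.6% all 3. At least 2 AP-2 genes were thus found together in 57.6% of anterior-like cells, against 4.81% of 1143 dental-like, 8.01% of 2109 posterior-like and 19.2% of 406 periderm and suprabasal-like cells. None was found in 68.8%, 56.9% and 37.2% of those cells, and Tfap2a alone was the most frequent state with a UMI, at 18.0%, 25.3% and 19.5%. Cells with all 3 genes made up 0.262% of dental-like, 0.427% of posterior-like and 1.23% of periderm and suprabasal-like cells.

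Within the anterior-like zone the AP-2 genes were found together slightly more often than the product of their shares. Tfap2a and Tfap2b were both found in 44.0% of cells against a product of 40.4%, a ratio of 1.09 (1.05 to 1.13), and the ratio was 1.08 for Tfap2a with Tfap2c (1.01 to 1.15) and for Tfap2b with Tfap2c (1.02 to 1.13). This zone mixes clusters of different levels, with Tfap2b in 94.4% of thinned cells of cluster 0, 97.4% of cluster 4 and 41.3% of cluster 3. How much of these ratios lies between clusters was not tested. Tfap2a with Tfap2b also exceeded 1 in posterior-like cells (1.32, 1.04 to 1.65) and in dental-like cells (1.57, 1.01 to 2.33, from 24 cells with both). Without called doublets, neither interval stayed above 1: the ratio was 1.31 (0.952 to 1.76) in posterior-like and 1.17 (0.505 to 2.29, from 8 cells) in dental-like cells, while the 3 anterior-like ratios remained 1.09, 1.08 and 1.08. The other pairs in these 2 zones had intervals that included 1, from 1.18 (0.951 to 1.44) to 1.96 (0.980 to 3.49), as did all pairs in periderm and suprabasal-like cells, at 1.09, 0.887 and 0.959. Pooled over the whole E12.0 library the ratios were 1.26, 1.18 and 1.40, which mixes zones of different levels. Over all groups of both stages, 9 of 33 pairs were above 1 with their interval and none below, 7 were without called doublets, and without thinning, where deeper cells hold more of every gene, 22 were.

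**Figure D3:**
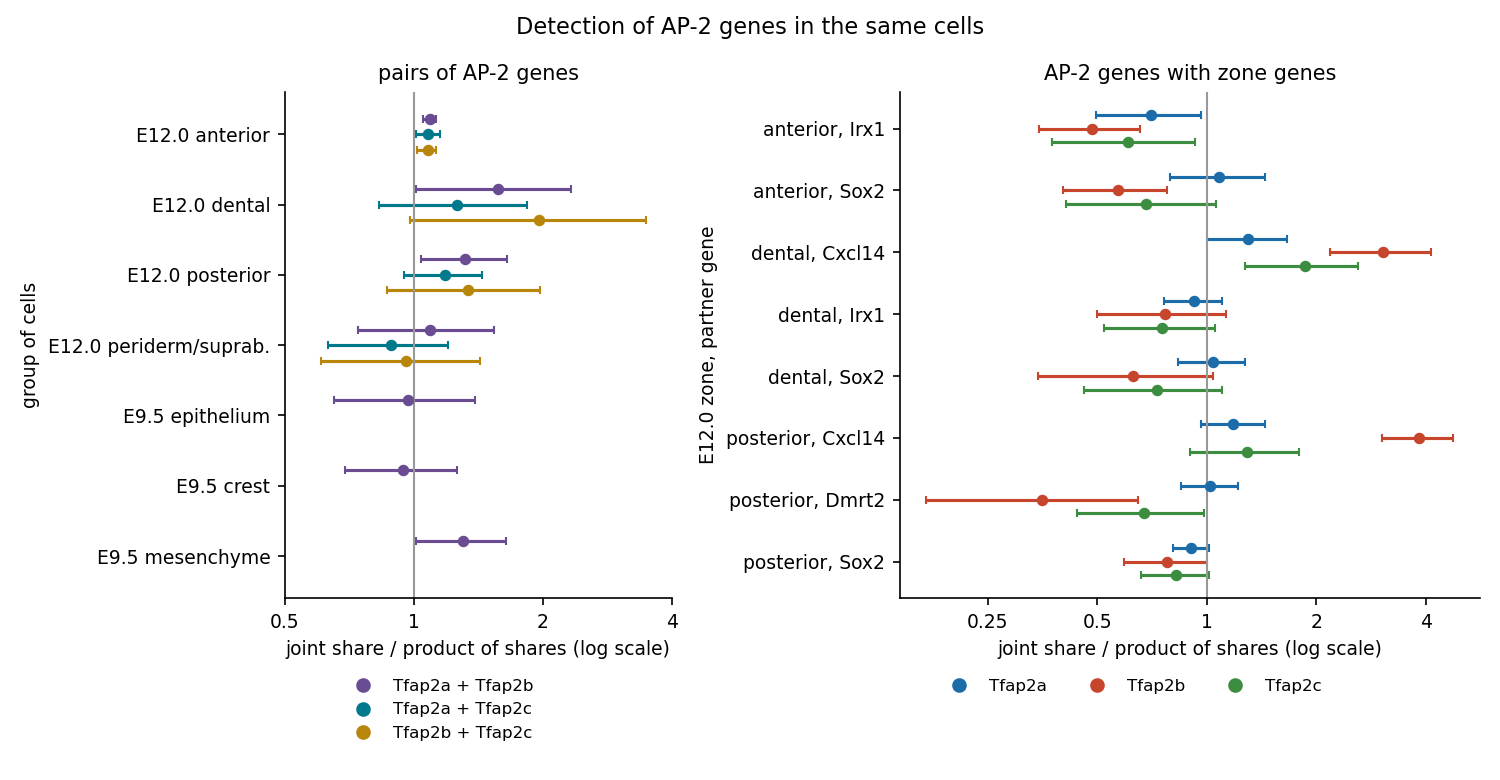
Ratio of the observed share of cells with both AP-2 genes to the product of their shares, on a log axis and in thinned cells (left), and the same ratio for each AP-2 gene with Irx1, Sox2, Cxcl14 or Dmrt2 in E12.0 zones (right). Bars are 95% binomial limits of the joint share divided by the product, taken as known. AP-2 pairs in anterior-like cells lie at 1.08 to 1.09, just above the line at 1, while Tfap2b with Cxcl14 reaches 3.82 and with Dmrt2 falls to 0.352 in posterior-like cells, called doublets included.

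Detection of Tfap2b was then set beside genes of the zones at the same depth. Cxcl14, a chemokine of anterior epithelium, and Irx1, a transcription factor of dental epithelium, were among the markers that named the zones. Inside zones with little Tfap2b, cells with Tfap2b held Cxcl14 more often than the product: the ratio was 3.05 (2.18 to 4.14) in dental-like, 3.82 (3.02 to 4.76) in posterior-like and 2.45 (1.82 to 3.21) in periderm and suprabasal-like cells, against 1.04 (1.02 to 1.06) in anterior-like cells, where most cells held Cxcl14. Called doublets were a large part of these Tfap2b cells. Leaving them out, an alternative chosen after seeing the data, lowered the share of cells with Tfap2b from 6.04% to 3.09% in dental-like, from 8.06% to 5.24% in posterior-like and from 19.0% to 13.7% in periderm and suprabasal-like cells. The Cxcl14 ratio was then 1.66 (0.718 to 3.26, from 8 cells) in dental-like cells, which includes 1, 2.34 (1.43 to 3.61) in posterior-like and 2.46 (1.59 to 3.60) in periderm and suprabasal-like cells. Tfap2c with Cxcl14 was at 1.86 (1.27 to 2.60) in dental-like cells, and at 1.58 (0.940 to 2.49) without called doublets.

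In anterior-like cells, some dental and posterior marker genes were found with AP-2 genes less often than the product. The part that differences between the clusters of this zone have in these ratios was not tested. The ratio with Irx1 was 0.701 (0.495 to 0.965) for Tfap2a, 0.483 (0.345 to 0.656) for Tfap2b and 0.607 (0.376 to 0.926) for Tfap2c, and without called doublets it was 0.656, 0.434 and 0.531, each with its interval below 1. With Sox2, a factor of posterior epithelium, Tfap2b was at 0.568 (0.402 to 0.778), but the intervals of Tfap2a (1.08, 0.792 to 1.44) and Tfap2c (0.680, 0.410 to 1.06) included 1, as did those of all 3 genes with Dmrt2, which few anterior-like cells held. In dental-like cells the Irx1 ratios, at 0.922, 0.768 and 0.752, and the Sox2 ratios included 1 as well. In posterior-like cells the ratio with Dmrt2 was 0.352 (0.169 to 0.647) for Tfap2b, 0.671 (0.439 to 0.981) for Tfap2c and 1.02 (0.849 to 1.22) for Tfap2a. That of Tfap2b was 0.452 (0.195 to 0.888) without called doublets, but 0.899 (0.673 to 1.18) in cells that were not thinned, where Tfap2c was at 0.812 with an interval that reached 1.

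Anterior-like cells were also split by their Tfap2b count. With 0, 1 to 2, 3 to 5 and at least 6 Tfap2b UMIs (775, 912, 1301 and 823 cells), Tfap2a was found in 33.2%, 49.0%, 55.4% and 61.7% of cells, and Tfap2c in 23.4%, 32.9%, 35.4% and 39.6%. The share with Cxcl14 was 80.8%, 96.9%, 99.2% and 99.8%. Medial anterior-like cluster 3, with low Tfap2b, belongs to this zone, and how much of these steps lies between clusters was not tested.

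Among the cofactor genes, only Kctd15 and Kctd1 were called in any comparison of E12.0 zones. Of 12 family members and cofactors, 7 were detected widely enough, and in both anterior comparisons only Kctd15 was called higher and only Kctd1 lower. The list median was log2 -0.05 against dental-like and -0.06 against posterior-like cells (all genes -0.02 and -0.03). Of all genes, 9.90% and 7.20% were called higher and 9.51% and 8.16% lower. Kctd15 was at 54.5 CPM in anterior-like, 38.3 in dental-like, 34.8 in posterior-like and 31.1 in periderm and suprabasal-like cells. Kctd1 took the opposite order at its extremes, at 63.8, 116, 85.7 and 163 CPM, and was called higher in dental-like over posterior-like cells, beside 7.37% of all genes. In periderm and suprabasal-like cells Kctd1 was called higher and Kctd15 lower of 7 tested, beside 12.2% and 10.8% of all genes.

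WNT ligand genes, through which facial epithelium signals to mesenchyme, were also highest in anterior-like cells. Wnt3 was at 160 CPM in anterior-like cells, 24.3 in dental-like, 14.6 in posterior-like and 27.0 in periderm and suprabasal-like cells, and Wnt7b at 337, 40.1, 96.5 and 79.6 CPM. Wnt9b was at 138 CPM in anterior-like cells and at 10.7 to 13.6 CPM elsewhere, but it was used for the anterior name. All 3 WNT genes tested of 4 were called higher in anterior-like cells against dental-like (median log2 3.07, beside 9.90% of all genes called higher) and posterior-like cells (3.45, beside 7.20%), and all 3 lower in periderm and suprabasal-like cells (-1.80, beside 10.8% of all genes). In dental-like against posterior-like cells only Wnt7b was tested, and it was called lower, beside 8.70% of all genes.

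Of 9 surface epithelium genes, 8 were tested in anterior-like cells. Against dental-like cells, Krt5 and Cdh1 were called higher and Krt8 lower, and against posterior-like cells Krt5 and Krt14 were among those called higher and Krt8 and Krt18 among those called lower, with a median of log2 0.06 both times, beside 9.90% and 7.20% of all genes called higher and 9.51% and 8.16% lower. Krt5, a basal keratin, was at 641 CPM in anterior-like, 202 in dental-like, 137 in posterior-like and 949 in periderm and suprabasal-like cells. Krt8, a keratin of simple epithelium, was at 8.17, 32.5, 139 and 130 CPM. In periderm and suprabasal-like cells 7 of 9 were called higher and Trp63, which marks basal cells, lower (median 1.19), beside 12.2% and 10.8% of all genes. In dental-like against posterior-like cells, Krt5 and Krt14 were called higher, and Krt8, Krt18 and Cdh1 were among those called lower (median -0.37, beside 7.37% and 8.70% of all genes).

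Of 10 crest and mesenchyme genes, few reached enough E12.0 cells, too few to set beside the shares of all genes. Kit was called higher of 2 tested in anterior-like against dental-like cells, and Snai2 higher and Sox9 lower of 3 tested against posterior-like cells. Dental-like cells had Snai2 called higher and Sox9 and Kit lower than posterior-like cells, and periderm and suprabasal-like cells had Snai2 and Kit called lower.

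At E9.5 Tfap2a and Tfap2b were present in all of epithelium, crest and mesenchyme, in a different order for each, while Tfap2c was low and highest in epithelium. Cells were gated in turn as epithelium (at least 1 Epcam UMI), crest (Sox10), endothelial reference (Cdh5 and Pecam1), muscle core (Msc or Myf5) and mesenchyme (Twist1 or Prrx1), which was divided by Hand2, a factor of ventral arch mesenchyme, and 1060 cells fell in none. Tfap2a was at 46.5 CPM (44.0 to 49.2) in crest, 39.3 (37.8 to 40.9) in epithelium and 32.3 (30.9 to 33.8) in mesenchyme, with no overlap. Tfap2b was at 87.3 CPM (83.7 to 90.9) in crest, 54.7 (52.8 to 56.6) in mesenchyme and 23.0 (21.9 to 24.2) in epithelium, again with no overlap. Tfap2c was at 3.96 CPM (3.50 to 4.47) in epithelium, 1.61 (1.31 to 1.97) in mesenchyme and 1.49 (1.06 to 2.04) in crest, and the last 2 overlapped.

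Free RNA gives some UMIs to any droplet, and the 185 endothelial cells (median 14869 UMIs) served as a background. There Tfap2a was at 4.62 CPM (2.46 to 7.90), Tfap2b at 2.49 (1.00 to 5.13) and Tfap2c at 0.355 (0.00900 to 1.98), with a UMI in 5.95%, 3.78% and 0.541% of cells. Epithelium (4816 cells, median 13471 UMIs) held Tfap2a in 37.0%, Tfap2b in 18.0% and Tfap2c in 5.00% of cells, crest (1551, 17099) in 51.1%, 63.5% and 2.32%, and mesenchyme (4658, 13722) in 29.8%, 39.5% and 2.04%. Tfap2a and Tfap2b were thus above the reference in all 3 groups. Tfap2c was apart from it in epithelium only, but the reference held 1 Tfap2c UMI, too few to decide for crest and mesenchyme. In endothelium-like cluster 9 of the E9.5 clusters described below (447 cells), Tfap2c was at 0.144 CPM (0.00366 to 0.805). That interval lay below those of crest and mesenchyme. The muscle core (474 cells) was at 7.31, 9.79 and 0.155 CPM, near the reference for Tfap2a and Tfap2c. The E12.0 sort held no cell type that lacks AP-2 genes, so it has no such background.

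**Figure D4:**
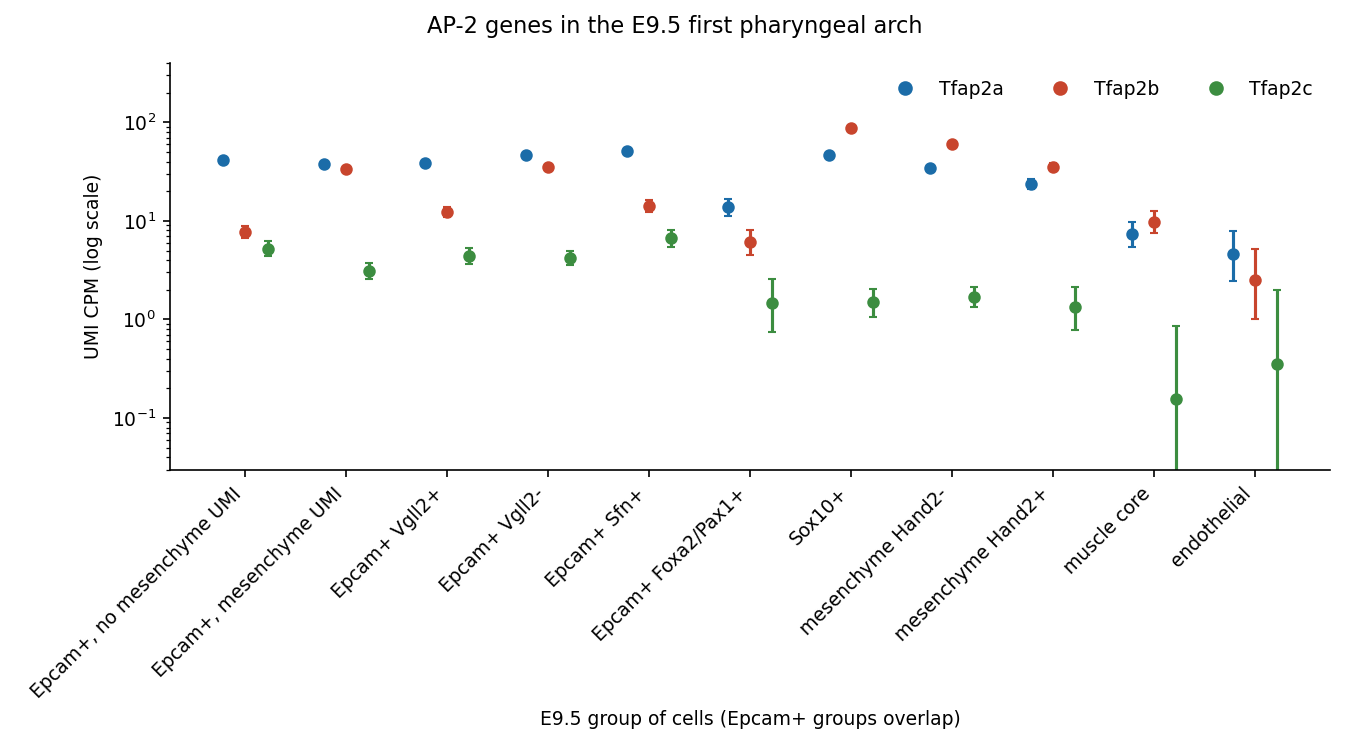
UMI CPM of the 3 AP-2 genes in the gated E9.5 groups (log axis), with bars for 95% exact counting intervals, 2 of which run below the axis. The Epcam-positive groups overlap in cells, and Tfap2b is highest in crest at 87.3 CPM, while Tfap2c is highest in Sfn-positive epithelium at 6.64 CPM.

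Against mesenchyme, epithelium had less Tfap2b (log2 -1.25, -1.34 to -1.16), which was called lower, as were 6.18% of 7475 genes. Tfap2a (0.28, 0.20 to 0.37) was under 1.3-fold and Tfap2c (1.3, 0.95 to 1.65) reached under 15% of cells, so neither joined the 19.4% of genes called higher. The 6 mesenchyme markers summed to 332 CPM in epithelium and 1075 in mesenchyme. In the 2331 epithelial cells with no UMI of Pdgfra, Prrx1 or Twist1, where these markers summed to 6.93 CPM, Tfap2b was at 7.67 CPM and the log2 difference was -2.83, whereas the 2485 epithelial cells with such a UMI held 33.4 CPM of Tfap2b and 550 CPM of the markers. Tfap2a was at 41.9 and 37.6 CPM and Tfap2c at 5.24 and 3.1 CPM in these 2 sets. With epithelium and mesenchyme from named clusters, Tfap2a was called higher in epithelium too (log2 0.57) and Tfap2b was at -2.50.

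Crest cells, which carry Sox10, exceeded mesenchyme in Tfap2a (log2 0.53, 0.42 to 0.63) and Tfap2b (0.67, 0.60 to 0.75). Both were called higher, where 1.3% of 7369 genes were called higher and 1.49% lower. Tfap2c did not differ beyond counting error (-0.11, -0.69 to 0.44). In cells with a Y-linked UMI the values were 0.36 for both Tfap2a and Tfap2b and neither was called, whereas in cells with Xist and no Y-linked UMI they were 0.62 and 0.79. The mesenchyme markers summed to 1076 CPM in crest and 1075 in mesenchyme, and the crest markers, Sox10 among them, to 244 and 86.0. The gates were split by a Sox10 UMI and do not show separate tissues.

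Hand2-positive mesenchyme (838 cells) had less of both genes than Hand2-negative mesenchyme (3820 cells). Tfap2a was at 23.9 CPM (21.3 to 26.7) against 34.7 (33.0 to 36.4), a log2 difference of -0.54 (-0.72 to -0.36), and Tfap2b at 35.6 (32.4 to 39.0) against 59.9 (57.7 to 62.2), a difference of -0.75 (-0.90 to -0.61). Both were called lower, beside 1.38% of 7322 genes called lower and 6.27% higher. Tfap2c, at 1.33 and 1.69 CPM, did not differ beyond counting error (-0.35, -1.20 to 0.42). The epithelial markers summed to 259 CPM in Hand2-positive and 68.5 in Hand2-negative cells, a rise that lay in Krt8 (112 against 25.2) and Krt18 (137 against 32.7). Cdh1 (2.26 against 2.05), Cldn6 (3.67 against 4.28) and Cldn7 (3.51 against 4.34) were close or lower, and Epcam was 0 by the gate. The 5 crest markers summed to 56.1 CPM in Hand2-positive and 94.2 in Hand2-negative cells, with Ets1 at 34.1 against 63.0. Sox10 was 0 in both by the gate, and crest cells without a Sox10 UMI could pass as mesenchyme. The part of the epithelial and crest markers in the AP-2 differences was not tested.

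Inside the E9.5 epithelium, cells with Foxa2 or Pax1, genes of pharyngeal endoderm, held little of any AP-2 gene. In these 577 cells Tfap2a was at 13.7 CPM, Tfap2b at 6.08 and Tfap2c at 1.46, against 43.0, 25.4 and 4.31 CPM in the other 4239 epithelial cells. The log2 differences were -1.65 (-1.93 to -1.37), -2.07 (-2.50 to -1.66) and -1.56 (-2.54 to -0.73), and Tfap2a and Tfap2b were called lower, beside 3.13% of 7694 genes called lower and 7.20% higher. The endoderm markers summed to 239 against 6.24 CPM, and the mesenchyme markers to 120 against 361 CPM. Without cells with mesenchyme UMIs, Tfap2a was at -1.92 and still called lower, while Tfap2b, at -1.98, reached too few cells to be called.

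Epithelium with Vgll2, a gene of oral ectoderm, was compared with Vgll2-negative epithelium, both without Foxa2 and Pax1. Tfap2b was at 12.4 CPM in 1638 positive and 35.2 CPM in 2601 negative cells, a log2 difference of -1.51 (-1.69 to -1.33), and was called lower, as were 4.79% of 7656 genes, while 5.16% were called higher. Tfap2a, at 38.8 and 46.1 CPM, was under 1.3-fold (-0.25, -0.36 to -0.13), and Tfap2c, at 4.45 and 4.21 CPM, did not differ beyond counting error (0.08, -0.29 to 0.45). The mesenchyme markers moved with this result, at 150 CPM in positive and 520 in negative cells. Without cells with mesenchyme UMIs the differences were -0.50 for Tfap2a, which was then called lower, -0.74 for Tfap2b, which was not called, and -0.34 for Tfap2c. The 1020 cells of this Foxa2- and Pax1-negative epithelium with Sfn, a gene of periderm, held 51.5 CPM of Tfap2a, 14.1 of Tfap2b and 6.64 of Tfap2c.

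Clusters of the E9.5 cells, made without the AP-2 genes, showed the epithelial range more closely. Cluster 7 (730 epithelium-like cells led by Wnt6, Sostdc1 and Foxi2) held the most Tfap2a and Tfap2c, at 76.2 and 7.51 CPM, with 22.7 CPM of Tfap2b. The epithelium-like clusters 3 (led by genes that included Vgll2 and Fgf8) and 4 (led by Pitx1 and Cd59a) lay at 34.2 and 48.4 CPM of Tfap2a and only 5.18 and 5.27 CPM of Tfap2b. The unnamed clusters 10 (led by Pax1 and Pax9) and 12 (led by Foxe1 and Nkx2-1), which raised all 5 endoderm markers, were at 4.67 and 6.0 CPM of Tfap2a and 4.26 and 0.999 of Tfap2b, close to endothelium-like cluster 9 at 5.06 and 3.90.

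The crest-like cluster 1 (2343 cells) was highest for Tfap2b at 90.9 CPM, with 49.0 CPM of Tfap2a, and mesenchyme-like cluster 0 (2453 cells, led by Dlx6os1 and Dlx5) was at 58.6 and 32.8 CPM. Over the 16 clusters Tfap2a spanned 16.9-fold (12.8 to 22.9) and Tfap2b 90.9-fold (25.2 to 751), while Tfap2c ran from 0 UMIs in the blood-like cluster 15, which allows up to 3.01 CPM, to 7.51 CPM. Intervals of neighbours overlapped for 12 of 15 pairs in the order of Tfap2a and 13 of 15 in that of Tfap2b. Pearson's r of log2(CPM + 1) over these clusters was 0.65 between Tfap2a and Tfap2b, 0.77 between Tfap2a and Tfap2c and 0.12 between Tfap2b and Tfap2c.

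Of 4829 genes that passed 50 CPM in some E9.5 cluster, the 5 most like Tfap2a were Ppa2 (0.78), Hibadh (0.75), Fmr1 (0.75), Cript (0.74) and Pdha1 (0.72). Tfap2b was most like Phactr1 (0.92), Crabp1 (0.89), Plcg2 (0.87), Dlx1 (0.87) and Psmg3 (0.87), and the 5 most like Tfap2c included Nudt11 (0.94), Pdlim1 (0.88), Wnt4 (0.87) and Ube2q2 (0.87). None of the genes named here was among the 5 most like the same AP-2 gene at E12.0.

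The summed AP-2 level at E9.5 was 66.3 CPM in epithelium, 88.6 in mesenchyme and 135 in crest. Tfap2a made up 59.3% of the epithelial sum, Tfap2b 34.7% and Tfap2c 5.97%, while Tfap2b made up 61.7% in mesenchyme and 64.5% in crest. The epithelial shares depended on which cells were kept. Tfap2a made up 76.4% in epithelial cells without Pdgfra, Prrx1 and Twist1 UMIs. In those with such UMIs, Tfap2a made up 50.8% and Tfap2b 45.1%. The part of mesenchyme RNA in these shares was not tested. In cells thinned to 3100 UMIs, 82.1% of epithelial, 66.1% of crest and 78.1% of mesenchymal cells held none of the 3 genes. Tfap2a alone was found in 11.0%, 10.8% and 7.42%, Tfap2b alone in 4.76%, 19.6% and 12.4%, and at least 2 AP-2 genes together in 0.812% of epithelial cells. Tfap2a and Tfap2b were found together at 0.972 times the product in epithelium (0.651 to 1.39), 0.946 in crest (0.692 to 1.26) and 1.3 in mesenchyme (1.01 to 1.64). Mesenchyme mixes Hand2-positive and Hand2-negative cells of different levels, and within each the interval included 1 (2.06, 0.829 to 4.22, and 1.20, 0.921 to 1.53).

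In E9.5 epithelial cells, Tfap2b was found with genes of oral ectoderm less often than the product. The ratio was 0.246 (0.131 to 0.421) with Sox2 and 0.325 (0.199 to 0.502) with Vgll2 in thinned cells, and nearer 1, at 0.582 (0.512 to 0.659) and 0.618 (0.540 to 0.704), in cells that were not thinned. For Tfap2a the ratio with Vgll2 was 0.826 (0.680 to 0.994), but it was 0.869 (0.713 to 1.05) in epithelium without Foxa2 and Pax1 and 0.998 without thinning, and that with Sox2 (0.867, 0.706 to 1.05) included 1. Mesenchyme markers were present in the Epcam gate, as given above, and their part in these ratios was not tested.

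**Figure D5:**
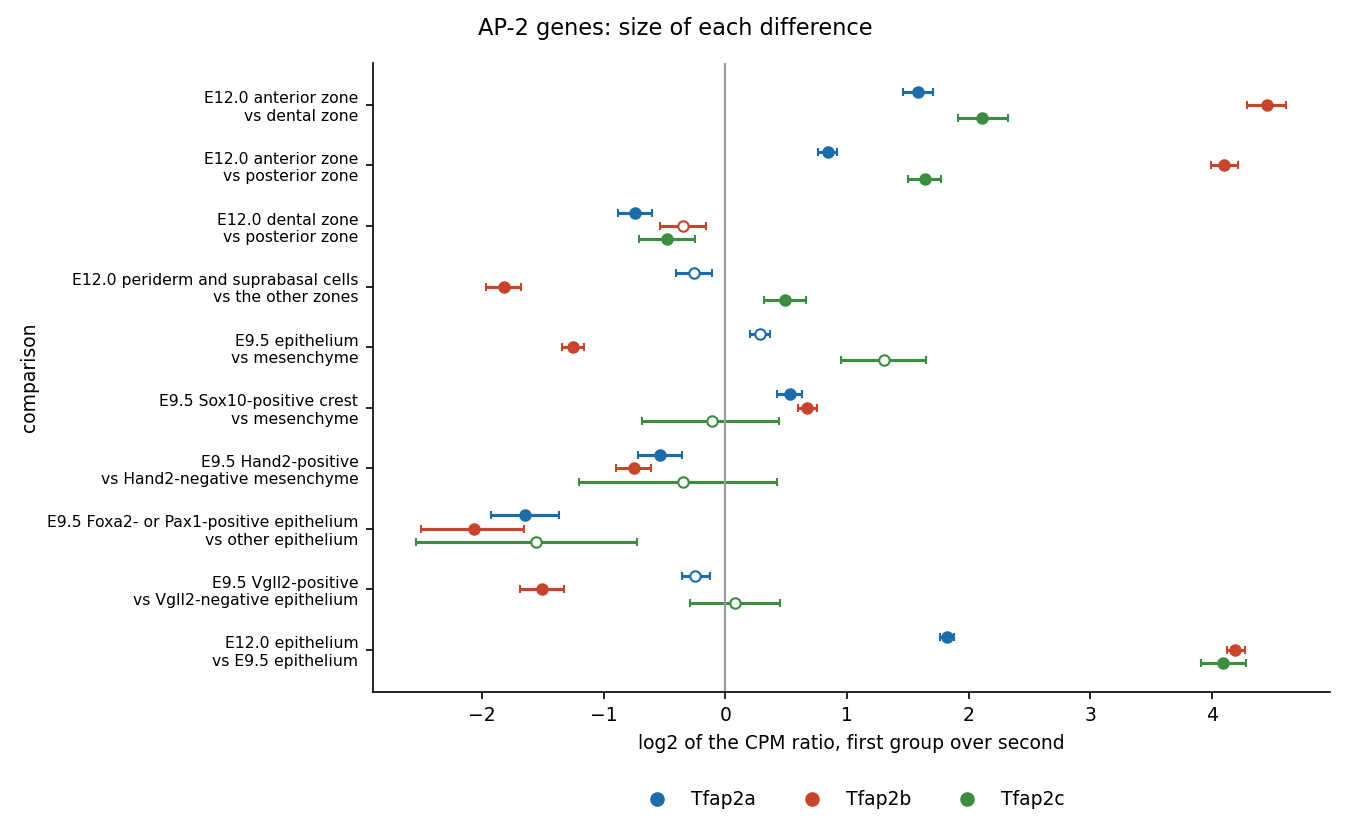
Log2 difference of each AP-2 gene in the 10 comparisons, with bars for 95% exact counting intervals and open circles where the size criteria were not met. Tfap2b spans the widest range, from -2.07 in Foxa2- or Pax1-positive epithelium to 4.45 in the anterior-like zone against the dental-like zone.

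Among the cofactor genes, only Kctd1, Kctd15 and Cited1 were called in any comparison of E9.5 groups. Of 8 tested, Kctd1 was called higher and Kctd15 and Cited1 lower in epithelium against mesenchyme (list median -0.01, all genes 0.08). Of all genes, 19.4% were called higher and 6.18% lower there. In crest Kctd1, at 38.0 against 28.4 CPM, was called higher and Cited1 lower, with no cofactor called in the Hand2 comparison and only Cited1 called, lower, in the Foxa2 or Pax1 and Vgll2 comparisons. Surface epithelium genes were all called higher in epithelium against mesenchyme (5 of 5 tested, median 4.24, beside 19.4% of all genes). Of these, Krt8, Krt18 and Cdh1 were also among the epithelial markers used here. In crest, Krt8 and Krt18 were called lower, and in Hand2-positive mesenchyme higher (2 of 2 tested each, beside 1.49% and 6.27% of all genes). In Foxa2- or Pax1-positive epithelium Krt8, Krt18 and Cdh1 were called higher and Trp63 lower, beside 7.20% and 3.13% of all genes. With Vgll2, Trp63 and Grhl2 were called higher of 6 tested, beside 5.16%.

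Of the crest and mesenchyme genes, in epithelium against mesenchyme Kit was called higher and Sox9, Ets1, Snai1, Dlx5 and Dlx6 lower of 7 tested (median -1.18, beside 19.4% and 6.18% of all genes). Ets1, a crest factor, was at 96.3 CPM in crest and 56.8 in mesenchyme and was called higher there, while Snai2, Dlx5 and Dlx6 were called lower of 6 tested. Hand2-positive mesenchyme had Snai2, Dlx5 and Dlx6 called higher and Ets1 lower (beside 6.27% and 1.38% of all genes). Dlx5 and Dlx6, factors of ventral arch identity, thus moved opposite to Tfap2a and Tfap2b in both comparisons. In the Foxa2 or Pax1 and Vgll2 comparisons 5 and 6 of 7 were called lower, beside 3.13% and 4.79% of all genes. Kit was called higher in the latter, beside 5.16%. The mesenchyme markers were also lower in the first group of both comparisons, as given above. Their part in these calls was not tested. No WNT gene was tested in the epithelium, crest and Hand2 comparisons. Wnt9b was called lower with Foxa2 or Pax1, beside 3.13% of all genes, and it was tested but not called with Vgll2 (-0.35).

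Between stages, E12.0 epithelium held far more of all 3 AP-2 genes than E9.5 epithelium. Tfap2a was at 139 against 39.3 CPM, 3.54-fold (log2 1.82, 1.76 to 1.88), Tfap2b at 422 against 23.0 CPM, 18.3-fold (4.19, 4.12 to 4.27), and Tfap2c at 67.6 against 3.96 CPM, 17.1-fold (4.09, 3.91 to 4.28). All 3 were called higher, but so were 35.8% of 7675 genes, while 25.8% were called lower, so calls between these libraries are common. Cells thinned to the same 4100 UMIs held Tfap2a in 40.8% against 15%, Tfap2b in 47.8% against 6.81% and Tfap2c in 22.4% against 1.81%. Without E9.5 cells with mesenchyme UMIs the Tfap2b difference was log2 5.78. The E12.0 dental-like zone, the lowest of the zones, held 61.7 CPM of Tfap2a, 37.2 of Tfap2b and 23.6 of Tfap2c. With called doublets included, each was above the CPM of the E9.5 epithelium. At 4100 UMIs, however, Tfap2b was found in 6.04% of dental-like cells (4.73% to 7.58%) and 6.81% of E9.5 epithelial cells (6.1% to 7.58%), which overlap, whereas Tfap2a was found in 22.1% and Tfap2c in 8.14% of dental-like cells. Both sides of this Tfap2b comparison depended on which cells were kept. Without called doublets the dental-like share was 3.09%. The log2 fold of Tfap2b in anterior-like over dental-like cells was then 6.45, so the order of the Tfap2b CPM above depends on called doublets. E9.5 epithelial cells without mesenchyme UMIs held 7.67 CPM of Tfap2b.

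Cofactor genes were called between the stages at shares not far from those of all genes (35.8% higher and 25.8% lower). Of 8 tested, 4 were higher and 2 lower at E12.0: Kctd1 (80.3 against 41.3 CPM), Kctd15 (45.5 against 26.5), Ep300 (102 against 57.1) and Crebbp (262 against 133) were higher, and Cited1 (1.35 against 15) and Cited2 (49.8 against 253) lower. The list median was log2 0.29 against 0.12 for all genes. Of the surface epithelium genes 6 of 8 were called higher, among them Trp63 (253 against 37.5 CPM), and Krt8 and Krt18 lower (median 1.99). Wnt3, Wnt7b and Wnt9b were all called higher (median 4.06), and of 6 crest and mesenchyme genes Snai2 and Kit were called higher and Ets1, Snai1 and Dlx5 lower (median -1.21).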

How the data were processed

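UMI counts per gene and cell barcode were deposited by the authors as 2 filtered matrices, 1 per stage, made with Cell Ranger and mm10 (2.0.0 in the submitters' processing notes, 3.1.0 and 6.1.2 in the file headers for E12.0 and E9.5). The E12.0 sort was set for single cells, while strand use in counting and any removal of doublets from the counts were not given in the sources used here. Cells were filtered (200 to 5500 genes, at most 10% mitochondrial UMIs) and clustered without AP-2 genes in Seurat 5.3.0 with sctransform 0.4.2 (R 4.3.3, 30 components, resolution 0.9). Scores of cell cycle genes, of sex genes and of Gm42418 with AY036118 were regressed at both stages. A cluster was named from at least 3 marker genes raised 1.5-fold in at least 5% of cells. It stayed unnamed where marker lists tied or where another list had more genes among its leading genes. The same held where its depth was low and no gene of the list was among them. Scrublet (scanpy 1.11.5) marked 661 doublets at E12.0 (5.82%) and 331 at E9.5 (2.60%), kept except in an alternative. Counts were summed over the cells of a group and divided by its total UMIs. For joint detection, cells were thinned to 4100 (E12.0) or 3100 UMIs (E9.5), leaving out 1024 and 1233 shallower cells. With 1 library per stage no test across samples was possible. The scripts were tested on simulated data. Sums and intervals came from scipy 1.17.1 under Python 3.11.15. The genes, lists, gates and comparisons were chosen with earlier results of these data known. The named genes were all 3 AP-2 genes, the list members, the joint-detection partners and the 5 genes most alike per AP-2 gene and stage. A few of the genes this rule names are not reported here.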

Additional observations from a re-analysis of the deposited data

How the results depend on the processing

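Of 345 alternative log2 differences of single AP-2 genes, 2 reversed a called direction (Tfap2c, dental-like against posterior-like, at 0.73 with low-resolution zones and 0.12 with log-normalised zones), 220 stayed within the counting interval and 123 did not. Counts of AP-2 genes called, out of 3, changed as follows. Epithelium against mesenchyme, 1 called, gave 2 with equal weight per cell, 0 with thinned cells and 2 with named clusters. Dental-like against posterior-like, 2 called, gave 1 in cells with Xist only, with a 25% detection minimum, with thinned cells and without regression, 0 with a fold of 2, and in the opposite direction 2 with low-resolution and 1 with log-normalised zones. Periderm gave 1 instead of 2 with a fold of 2. Crest against mesenchyme, 2 called, gave 0 in cells with a Y-linked UMI and with a fold of 2, and 1 with thinned cells. The Hand2 comparison, 2 called, gave 0 with a fold of 2 and 1 with thinned cells. The Foxa2 or Pax1 comparison, 2 called, gave 0 with thinned cells and 1 with a 25% minimum, with gates of at least 2 UMIs and without mesenchyme UMIs. The Vgll2 comparison, 1 called, gave 2 in cells with a Y-linked UMI and 0 with a 25% minimum and with thinned cells. Of 33 joint pairs, 9 departed from 1, against 22 in cells that were not thinned, 21 in those when a gene needed 2 or more UMIs, and 7 without called doublets, where Tfap2a with Tfap2b in dental-like and posterior-like cells no longer departed. Thinning lowers every share of cells with a UMI, so fewer genes can meet the detection minimum by construction. Otherwise the cause was not tested. Crest and mesenchyme from named clusters, an alternative chosen after seeing the data, kept both calls (0.58 and 0.63). No paired analysis was possible because each stage is 1 library. No gated E9.5 group held a Tfap2c UMI in 15% of its cells, so Tfap2c could not be called between E9.5 groups.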
